A study of Mus musculus with 8 samples.

Results

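The genes described here are 10 components of the transforming growth factor beta (TGF-beta) pathway, the ligand Tgfb1, its tether Nrros, the integrin chain Itgav, the receptors Tgfbr1 and Tgfbr2, the signal carriers Smad2, Smad3 and Smad4, and the inhibitors Smad7 and Skil. They were chosen by symbol, and all 10 were found among the 51810 genes of the count table. RNA was measured in microglia of wild-type mice, taken with CD11b beads after myelin removal from 21-month white matter, 21-month grey matter, 4-month white matter and 4-month grey matter, with 2 libraries in each of the 4 groups. White matter is the corpus callosum; the region label of the grey matter samples names the corpus callosum too, so the split follows the titles and the tissue label. The labels name no strain, treatment or transgene, and do not say whether the libraries of a group came from different animals or pools, so p-values measure only the spread between these libraries, which may be technical.

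TGF-beta 1 is secreted in a latent form, folded into its own propeptide. On microglia the protein encoded by Nrros (also called LRRC33) holds that latent complex at the surface, and integrins that contain the alpha-v chain, encoded by Itgav, release the active ligand. The ligand binds Tgfbr2, which activates Tgfbr1, which in turn phosphorylates Smad2 and Smad3; these pair with Smad4 and enter the nucleus. In mice this signal is known to be needed for the adult microglial state, and its loss raises genes of activated microglia.

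Library totals ran from 3273258 to 6315782 counts. Levels are given in CPM, counts per 1000000 of a library after TMM scaling, a factor that corrects for differences in composition. The 12 microglia markers were detected in all 8 libraries. In the first 4-month white matter library they summed to 3285 CPM, against 13630 to 20079 CPM in the other 7, and 12 markers of oligodendrocytes reached 65554 CPM in sum, where the other 7 libraries had 522 to 1270 CPM. This library is therefore given apart below, and each comparison that uses it is repeated in its absence. In bulk RNA, fewer cells of a type and less RNA per cell cannot be told apart.

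All 10 genes were read in every library, and all 10 passed the filter on low counts in each comparison. Per kilobase of the longest principal transcript in GENCODE M21, Tgfbr1, the kinase that passes the signal to the Smads, had the highest level, with a median of 195 CPM per kb over the 7 libraries other than the first of 4-month white matter and a range of 170.5 to 240.5 CPM per kb. Skil, Tgfbr2 and Tgfb1 followed, with medians of 137, 127 and 122 CPM per kb, and their ranges over those libraries overlapped. Nrros had a median of 75.2 and Smad7 of 43.9 CPM per kb, and Itgav (24.8) and Smad3 (21.4) overlapped in range. Smad4 (11.3 CPM per kb) and Smad2 (6.42 CPM per kb) were the lowest of the 10. The sources used here do not give the annotation behind the deposited counts, and these length-scaled levels are approximate.

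The promoters of the receptor pair are shown because Tgfbr1 and Tgfbr2 work as one complex and stood low together in the library described above. Each line gives 250 bases before and 50 after the start site, 5′ to 3′ on the gene's strand, from RefSeq on GRCm38.p6; capitals mark CAGAC, the Smad-binding CAGA element, or GAGGAA, the core of sites for the myeloid factor PU.1, on either strand.
Tgfbr1, chr4:47352972-47353271, plus strand: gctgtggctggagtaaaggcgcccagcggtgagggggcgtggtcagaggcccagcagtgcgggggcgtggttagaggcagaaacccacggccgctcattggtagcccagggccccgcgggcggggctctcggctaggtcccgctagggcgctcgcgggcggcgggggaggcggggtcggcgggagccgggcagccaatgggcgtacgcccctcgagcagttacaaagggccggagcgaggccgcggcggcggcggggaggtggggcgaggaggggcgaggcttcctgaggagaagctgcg
Tgfbr2, chr9:116175314-116175613, minus strand: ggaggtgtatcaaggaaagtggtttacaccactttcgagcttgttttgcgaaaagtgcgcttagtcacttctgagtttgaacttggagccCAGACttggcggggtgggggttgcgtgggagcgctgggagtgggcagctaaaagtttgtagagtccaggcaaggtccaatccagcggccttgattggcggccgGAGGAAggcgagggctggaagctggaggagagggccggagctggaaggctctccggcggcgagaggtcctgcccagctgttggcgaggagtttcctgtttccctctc
The window of Tgfbr2 holds 1 CAGAC and 1 GAGGAA, and that of Tgfbr1 holds neither, while a second RefSeq start of Tgfbr1 has 1 of each. Among 32851 RefSeq promoter windows of 300 bases, 49.6% hold CAGAC and 28.3% hold GAGGAA. A match to so short a motif is common and describes the letters only.

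At 21 months, none of the 10 genes passed the test between white and grey matter microglia. Their log2 fold changes lay between -0.25 and 0.28, with 7 above 0 and 3 below, and a median of 0.09, beside a median of 0.01 over all 14717 genes tested. In edgeR's quasi-likelihood test on the 4 libraries of that age 0 of the 10 were called at an adjusted p under 0.05, where 1.58% of all genes were called, and 0 had an unadjusted p under 0.05. DESeq2, which called 2.13% of all genes, and limma, which called 0.851%, also called 0 of the 10, as did the fit with the replicate number as a block, which called 3.55%, and a fit of all groups without the first 4-month white matter library, which called 0.109%. In the fit of 4 libraries the 95% confidence intervals of the 10 lay between -0.62 and 0.82. A 2-fold difference, which is 1 on the log2 scale, fell outside each of them. This bound is given for that fit only. With all 8 libraries in the fit the common dispersion, a measure of spread shared by all genes, was 0.257, against 0.0503. That fit called 0% of all genes and 0 of the 10. The libraries of the regions did not overlap for 5 of the 10 genes, while this held for 40.3% of all genes.

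**Figure D1:**
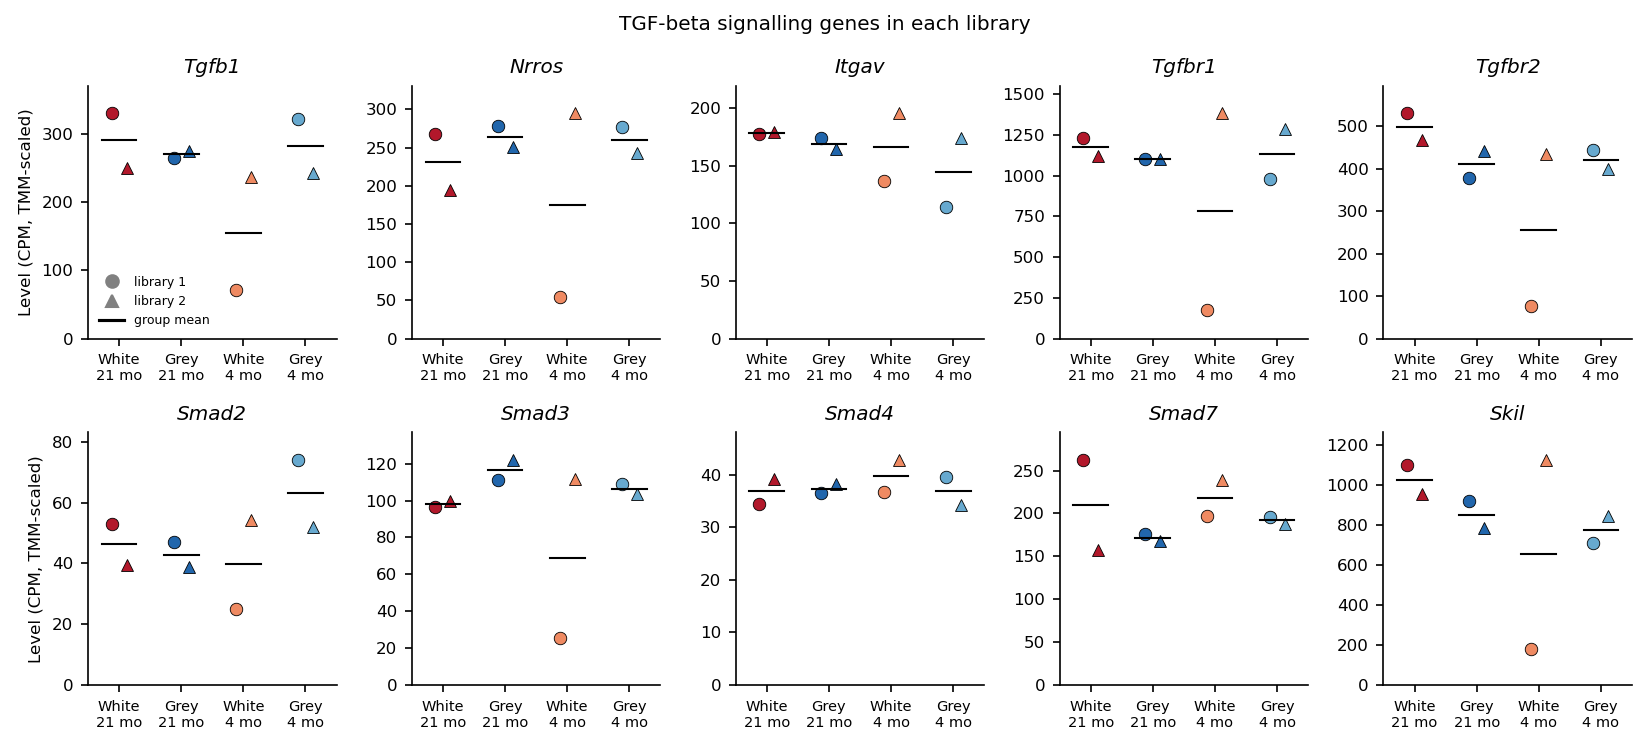
Level in CPM (vertical axes, from 0) of each of the 10 genes in the 8 libraries, by region and age; circles are the first and triangles the second library of a group, and bars are group means. Apart from the first 4-month white matter library, which stands low for 7 of the genes, the libraries of each gene lie within a factor of 1.26 (Smad4) to 1.91 (Smad2) of each other.

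On the side of the ligand, Tgfb1 stood at 331 and 250.3 CPM in 21-month white matter, against 265 and 275 CPM in 21-month grey matter, with a log2 fold change of 0.10 ± 0.18 (SE). The grey matter values lay between those of white matter. Nrros stood at 268 and 195 CPM in white matter, against 279 and 250.4 CPM in grey matter, a log2 fold change of -0.20 ± 0.19. Itgav stood at 178 and 179.5 CPM in white matter, against 174.5 and 164 CPM in grey matter; both white matter libraries were higher, but by less than the fit could separate from 0 (0.07 ± 0.15).

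Tgfbr1 stood at 1232 and 1121 CPM in 21-month white matter, against 1104 and 1103 CPM in 21-month grey matter, and its log2 fold change was 0.08 with an interval of -0.28 to 0.45. Tgfbr2, which binds the ligand first, stood at 531 and 466 CPM in white matter, against 378 and 442 CPM in grey matter, a log2 fold change of 0.27 with an interval of -0.10 to 0.64. Both libraries of white matter lay above both of grey matter for each receptor, and neither difference passed (edgeR adjusted p = 0.927 for Tgfbr1 and 0.624 for Tgfbr2).

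Of the Smads, Smad3 had the lowest log2 fold change of the 10 in this comparison. It stood at 96.7 and 99.8 CPM in white matter, against 111 and 122 CPM in grey matter, with a log2 fold change of -0.25 ± 0.16 and an interval of -0.61 to 0.10 (edgeR adjusted p = 0.637). Smad2, the other Smad that Tgfbr1 phosphorylates, stood at 53.0 and 39.5 CPM in white matter, against 46.9 and 38.8 CPM in grey matter, and the regions overlapped. Smad4, the shared partner, stood at 34.5 and 39.2 CPM in white matter, against 36.4 and 38.2 CPM in grey matter, with a log2 fold change of -0.03.

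The inhibitors Smad7 and Skil are both known to be induced by the signal they restrain, Smad7 at the receptor and Skil, which encodes SnoN, on Smad-bound DNA. Smad7 stood at 263 and 157 CPM in 21-month white matter, against 176 and 168 CPM in 21-month grey matter, so that the white matter libraries lay on both sides of grey matter. Skil stood at 1099.6 and 955 CPM in white matter, against 921 and 783 CPM in grey matter. Its libraries did not overlap, and its log2 fold change of 0.26 ± 0.18 did not pass (edgeR adjusted p = 0.678).

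Markers of other cells differed in these libraries. The 12 neutrophil markers gave sums of 309 and 82.7 CPM in 21-month white matter, against 2218 and 1971 CPM in 21-month grey matter, and the 12 monocyte markers 218 and 182 CPM in white matter, against 686 and 490.1 CPM in grey matter. The choroid plexus and ependymal markers gave 394 and 11802 CPM in white matter, against 472 and 373 CPM in grey matter, and the oligodendrocyte markers 906 and 932 CPM in white matter, against 545 and 746 CPM in grey matter. Border-associated macrophages, which also carry CD11b, had 12 markers with sums of 209 and 320 CPM in white matter, against 504 and 522 CPM in grey matter. The astrocyte markers gave 85.1 and 156 CPM in white matter, against 239 and 208 CPM in grey matter, and the red blood cell markers 736 and 186 CPM in white matter, against 2647 and 720 CPM in grey matter. The endothelial markers gave 82.1 and 189 CPM in white matter, against 106 and 105 CPM in grey matter. The pericyte and smooth muscle markers gave 723 and 1348 CPM in white matter, against 1077 and 1296.5 CPM in grey matter. The part of all these cells in the levels of the 10 genes was not tested. The microglia markers gave 14088 and 14075 CPM in white matter, against 13630 and 16710 CPM in grey matter.

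**Figure D2:**
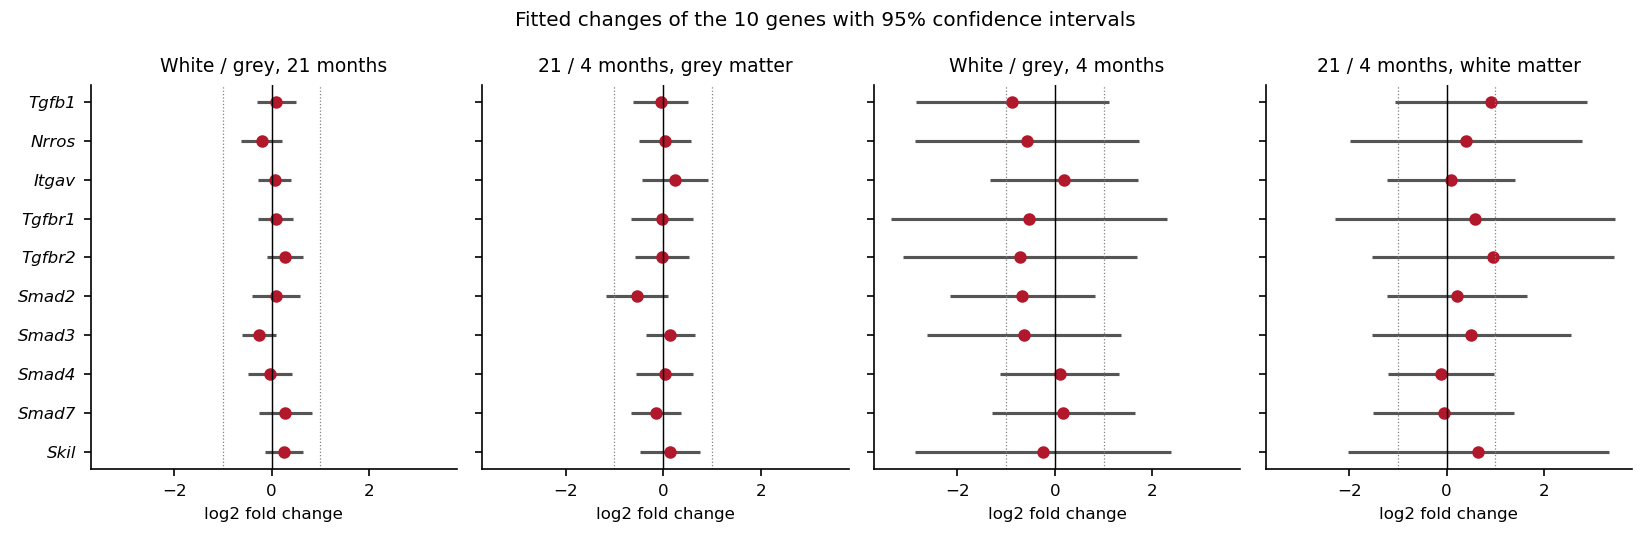
Fitted log2 fold change (points) and 95% confidence interval (lines) of the 10 genes in 4 comparisons; the dotted lines mark 2-fold. The intervals are within -0.62 to 0.82 for white over grey matter at 21 months and reach from -3.37 to 3.47 in the comparisons that hold the first 4-month white matter library.

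Within grey matter, the levels at 21 and 4 months were also close. The log2 fold changes of the 10 genes lay between -0.53 and 0.24, with 5 above 0 and 5 below and a median of 0.01, beside -0.01 over all 15255 genes tested. EdgeR called 0 of the 10, DESeq2 and limma called 0 as well, and none had an unadjusted p under 0.05; of all genes 0% were called by edgeR, 0.0131% by DESeq2 and 0% by limma, with 419 at an unadjusted p under 0.05 in edgeR. The 95% intervals of 9 of the genes were within 1 of 0. The libraries of the ages did not overlap for 3 of the 10 genes, against 34.5% of all genes.

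Smad2 was the exception to those intervals. It stood at 46.9 and 38.8 CPM in 21-month grey matter and at 74.1 and 51.9 CPM in 4-month grey matter, with a log2 fold change of -0.53 and an interval of -1.17 to 0.10 (edgeR adjusted p = 0.977). Both 21-month libraries were lower. When the second 4-month grey matter library was left out, so that 1 library stood for that group and was assumed to vary like the others, Smad2 was called with a log2 fold change of -0.74 (edgeR adjusted p = 0.0428), in a fit that called 13.7% of all genes. That remaining library carried the most red blood cell transcripts, 26116 CPM over 8 markers, against 186 to 6946 CPM in the other 7; their part in the value of Smad2 was not tested.

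For the ligand and the receptors in grey matter, group means differed by less than the spread of the 4-month libraries or of both groups. Tgfb1 averaged 270 ± 6.67 CPM (SD, n = 2) at 21 months and 283 ± 55.7 CPM at 4 months. Tgfbr1 averaged 1104 ± 0.829 CPM at 21 months and 1133 ± 214 CPM at 4 months, and Tgfbr2 averaged 409.7 ± 45.0 CPM at 21 months and 421 ± 31.0 CPM at 4 months. Smad3 lay higher in both 21-month libraries, at 111 and 122 CPM against 109 and 104 CPM at 4 months, and Smad7 lower in both, at 176 and 168 CPM against 196 and 188 CPM, with log2 fold changes of 0.15 ± 0.21 and -0.14 ± 0.21.

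In the first 4-month white matter library the 10 genes split. Tgfb1 stood at 71.2 CPM there, against 237 to 331 CPM in the other 7 libraries, and Nrros at 54.1 CPM, against 195 to 295 CPM. Tgfbr1 stood at 177 CPM, against 982 to 1384 CPM in the others, and Tgfbr2 at 77.04 CPM, against 378 to 531 CPM. Smad3, at 25.4 CPM against 96.7 to 122 CPM, and Skil, at 181 CPM against 708 to 1128 CPM, were low as well, and Smad2 less so, at 25.1 CPM against 38.8 to 74.1 CPM. These 7 genes were below every other library, as were 40.6% of the 8641 genes whose mean count reached 50. Smad4 at 36.7 CPM, Smad7 at 197 CPM and Itgav at 137 CPM lay inside the range of the other 7.

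The size of the gap was close to that of the microglia markers for 6 of the low genes. The median of the other 7 libraries exceeded the first 4-month white matter library by a factor of 3.72 for Tgfb1, 4.28 for Smad3, 4.94 for Nrros, 5.10 for Skil, 5.73 for Tgfbr2 and 6.32 for Tgfbr1. For the summed microglia markers the factor was 4.29, and it was 7.32 for Itgam, which encodes CD11b, the protein used for the selection. Per 1000 CPM of microglia markers, Tgfb1, Nrros, Tgfbr1, Tgfbr2, Smad3 and Skil in this library lay within the range of the other 7. On that scale Smad7 stood at 59.9, against 9.76 to 18.7 in the others, Itgav at 41.7, against 5.69 to 13.9, Smad4 at 11.2, against 1.97 to 3.05, and Smad2 at 7.63, against 2.32 to 3.85. These 4 were above all other libraries in a library rich in oligodendrocyte transcripts, whose part in their levels was not tested.

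**Figure D3:**
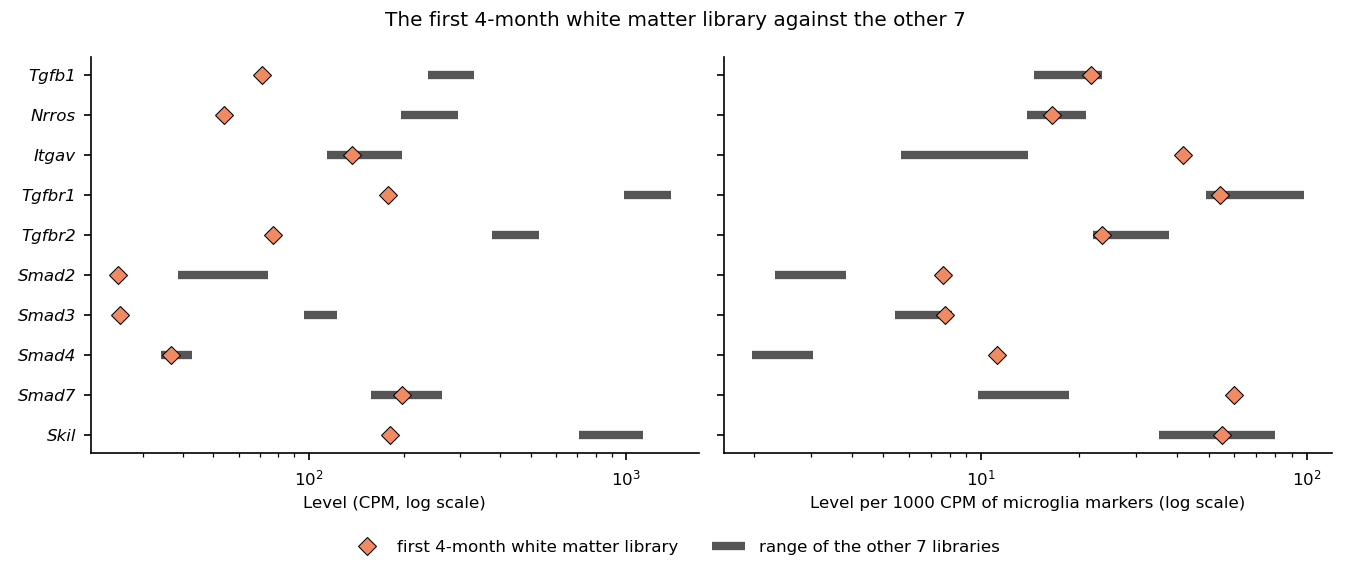
The first 4-month white matter library (diamonds) against the range of the other 7 libraries (bars) for each of the 10 genes, in CPM (left) and per 1000 CPM of summed microglia markers (right), both on log axes. Tgfb1, Nrros, Tgfbr1, Tgfbr2, Smad3 and Skil lie below the range on the left and within it on the right. Smad7, Itgav, Smad4 and Smad2 lie above the range on the right, where the low marker sum of this library also raises a typical gene.

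The comparison of white with grey matter at 4 months rested on that library. With both white matter libraries the log2 fold changes of the 10 genes lay between -0.87 (Tgfb1) and 0.19 (Itgav), with 7 below 0 and a median of -0.55. In edgeR 0 of the 10 were called and 0 had an unadjusted p under 0.05, and 0% of all genes were called, with 640 at an unadjusted p under 0.05. DESeq2 called 2.47% of all genes and limma 0%, and neither called any of the 10. The intervals reached from -3.37 (Tgfbr1) to 2.38 (Skil), so changes of severalfold were not excluded for those genes. That of Smad4 was narrower, at -1.12 to 1.33. Libraries of the regions did not overlap for 2 of the 10 genes, against 28.9% of all genes.

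Without the first white matter library, 8 of the 10 genes lay above 0, with a median of 0.22. In the second white matter library Tgfbr1 stood at 1384 CPM, Skil at 1128 CPM, Nrros at 295 CPM and Itgav at 196 CPM, each the highest value of its gene in the series. In 4-month grey matter Tgfbr1 stood at 982 and 1284 CPM, Skil at 708 and 845 CPM, Nrros at 277 and 243 CPM and Itgav at 114 and 175 CPM. The log2 fold change of Skil in that fit was 0.56 with an interval of -0.59 to 1.70, that of Tgfbr1 0.31 and that of Tgfb1 -0.23, and none of the 10 was called by edgeR. With the second white matter library left out instead, Tgfb1, Tgfbr1, Tgfbr2, Smad3, Nrros and Skil were called lower, with log2 fold changes of -2.05 to -2.75 (edgeR adjusted p = 0.0103 to 0.0315), in a fit that called 17.4% of all genes. In both of these fits 1 library stood for the group and was assumed to vary like the others.

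Between the ages in white matter the same dependence held. With all 4 libraries the log2 fold changes ran from -0.12 (Smad4) to 0.96 (Tgfbr2), with 8 above 0. EdgeR, DESeq2 and limma called 0 of the 10 and 0 had an unadjusted p under 0.05 in edgeR; 0% of all genes were called by edgeR, with 415 at an unadjusted p under 0.05, while DESeq2 called 1.91% and limma 0%. Libraries of the ages did not overlap for 2 of the 10, Tgfb1 and Tgfbr2, against 35.2% of all genes. Without the first 4-month library 8 of the 10 lay below 0, with a median of -0.21, edgeR called 0.459% of all genes and none of the 10 (0.00571% of all genes and none of the 10 with grey matter in the same fit), and the intervals narrowed to -0.97 at the lowest and 0.88 at the highest.

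In that narrower fit Tgfb1 had a log2 fold change of 0.28 and Tgfbr2 of 0.18, the only 2 of the 10 above 0. Tgfb1 stood at 331 and 250.3 CPM in 21-month white matter, against 237 CPM in the second 4-month library, and Tgfbr2 at 531 and 466 CPM against 434 CPM. The lowest value was that of Nrros at -0.37, with 268 and 195 CPM at 21 months against 295 CPM in the second 4-month library (edgeR adjusted p = 0.872). Without the second 4-month library, 6 of the 10 were called higher at 21 months, the same 6 genes as in the 4-month comparison, by 1.97 to 2.75 on the log2 scale (edgeR adjusted p = 0.000264 to 0.00115), in a fit that called 38.4% of all genes.

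The age change in white matter was set against that in grey matter in a fit of all 8 libraries. The differences for the 10 genes lay between -0.13 (Itgav) and 1.00 (Tgfbr2), with 0 called by edgeR, DESeq2 or limma and 0 at an unadjusted p under 0.05 in edgeR; of all genes 0% were called in edgeR, and 455 were at an unadjusted p under 0.05; DESeq2 called 0.123% and limma 0%. Without the first 4-month white matter library the differences lay between -0.39 and 0.34, with 0 of the 10 called, and without the second 6 were called, the 6 genes called in both other comparisons without it, in a fit that called 13.6% of all genes.

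The 10 genes also differed in how far they spread. Over the 7 libraries other than the first of 4-month white matter, the SD of log2 CPM was 0.11 for Smad3 and 0.12 for Smad4, and 2.58% and 2.80% of 8641 genes had a smaller one. Tgfbr2 (0.16), Tgfbr1 (0.17), Tgfb1 (0.19) and Nrros (0.20) also lay under the median of 0.30, as did Skil (0.25), Itgav (0.25) and Smad7 (0.27), while Smad2 (0.31) lay above it.

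Genes with the most similar pattern over those 7 libraries were found by the root mean square difference of centred log2 CPM among 7631 genes whose mean count over the 8 libraries reached 50, with predicted gene models, pseudogenes and mitochondrial genes left out. For Tgfb1 they were Mob1a, Tap1 and Natd1, with differences of 0.06, against a median of 0.31 over all these genes. For Tgfbr1 they included Fam208b (0.06) and Txndc11 (0.07), for Tgfbr2 Pon2, Atp13a2 and Ptp4a2 (0.05 to 0.06), and for Smad3 Stk4, Sidt2 and Kmt2b (0.06). Each pair of genes was read in the same 7 libraries, so the values describe likeness only.

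The other pathway genes were followed in 3 lists at 21 months. Of 16 genes of ligands, latency and activation, 13 passed the filter, and 1 was called higher and 0 lower in white matter, beside 1.58% of all genes called. Their median log2 fold change was 0.19, against 0.01 over all genes. The called gene was Mmp14, a membrane protease that can release latent TGF-beta. It stood at 52.5 and 45.4 CPM in white matter, against 23.4 and 25.1 CPM in grey matter, a log2 fold change of 1.01 ± 0.21 (edgeR adjusted p = 0.0472). The call was lost in 8 of 12 other settings, where the log2 fold change ran from 0.88 to 1.11 over all 12; with all 8 libraries in the fit the adjusted p was 1.00.

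The partners of the alpha-v chain differed in pattern. Itgb5 stood at 353 and 413 CPM in 21-month white matter, against 261 and 281 CPM in 21-month grey matter (0.49 ± 0.16, edgeR adjusted p = 0.231), and Itgb1 at 203 and 198 CPM in white matter, against 162 and 187 CPM in grey matter. Itgb8, whose product with alpha-v is a known activator of TGF-beta in the brain, stood at 7.33 and 47.7 CPM in 21-month white matter, 4.75 and 5.02 CPM in 21-month grey matter, 92.3 and 27.6 CPM in 4-month white matter, and 0.698 and 2.74 CPM in 4-month grey matter. At each age both white matter libraries were above both of grey matter. Of all genes, 20.9% were so at 21 months and 13.4% at 4 months. Itgb8 was not called at either age (edgeR adjusted p = 0.556 at 21 months and 1.00 at 4 months). The 3 libraries highest in Itgb8 were also the 3 highest in choroid plexus and ependymal markers, with sums of 5445, 7120 and 11802 CPM, against 38.8 to 472 CPM in the other 5, and 1 of them was the library with the oligodendrocyte transcripts; the part of those cells was not tested. Ltbp1, which binds latent TGF-beta in matrix, stood at 8.75 and 27.3 CPM in 21-month white matter, against 10.7 and 10.3 CPM in 21-month grey matter.

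Of 12 further receptors of the family 9 passed the filter at 21 months and 0 were called, with a median of 0.14. Tgfbr3, a co-receptor, stood at 6.86 and 39.7 CPM in white matter, against 9.90 and 10.3 CPM in grey matter. The high value was in the library with the highest sums of choroid plexus and ependymal, endothelial, and pericyte and smooth muscle markers. The part of those cells in it was not tested. Eng and Acvrl1, receptors best known from endothelium, had log2 fold changes of -0.12 and 0.26 (edgeR adjusted p = 0.902 and 0.863). Of 29 Smads and regulators 26 passed and 0 were called, with a median of 0.05; among them were the ubiquitin ligase Smurf2 at -0.08, the corepressors Ski at 0.01 and Tgif1 at 0.53, and the inhibitors Pmepa1 at -0.60 and Ldlrad4 at 0.05 (edgeR adjusted p = 0.931, 0.997, 0.282, 0.130 and 0.974).

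Target genes were read in 3 more lists at 21 months. Of 20 genes known to respond early to TGF-beta in various cells, 17 passed the filter, 1 was called higher and 0 lower. Of the 17, 12 lay above 0, with a median of 0.41. Over all genes tested 1.58% were called and 50.8% lay above 0. The counts take no account of the direction in which each gene responds to the signal. The called gene was Id2, an inhibitor of basic helix-loop-helix factors, at 96.3 and 58.1 CPM in white matter, against 23.0 and 14.5 CPM in grey matter, a log2 fold change of 2.02 ± 0.32 (edgeR adjusted p = 0.0188). It was called in 8 of 12 other settings, with a log2 fold change of 1.58 to 2.40 and adjusted p from 8.61e-16 to 1.00, and not without the first or the second 21-month grey matter library (adjusted p = 0.0581 and 0.0916). Pmepa1, which is in this list and among the regulators, lay the other way, at 305 and 323 CPM in white matter, against 430.4 and 518 CPM in grey matter, and was not called.

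Of 21 genes known to depend on TGF-beta in microglia, all were tested at 21 months and 0 were called, with 15 below 0 and a median of -0.29. Sall1, a transcription factor of microglial identity, stood at 523 and 543 CPM in white matter, against 722 and 870.3 CPM in grey matter, a log2 fold change of -0.59 ± 0.17 (edgeR adjusted p = 0.146). Both white matter libraries were lower. The receptors P2ry12 and Cx3cr1 and the surface protein Tmem119 had log2 fold changes of -0.57, -0.19 and -0.40 (edgeR adjusted p = 0.159, 0.786 and 0.415). Of 20 genes known to rise in microglia that lose the signal, 9 were called higher and 0 lower. Of the 20, 16 lay above 0 and 4 below, with a median of 0.97. Over all genes tested, 1.58% were called and 50.8% lay above 0. The 6 with the largest values in the list were Spp1, Lpl, Apoe, Itgax, Cst7 and Axl, at 6.03, 5.02, 3.87, 3.003, 2.95 and 2.36 on the log2 scale. In the same list Cd74, H2-Aa, H2-Ab1 and Ifitm3 had lower group means in white than in grey matter. This list was drawn up with results of these libraries known, and several of its genes mark activated microglia in general, so its count is no independent evidence on the pathway. With all 8 libraries in the fit 0 of the 20 were called, and once the first 4-month white matter library was dropped from that fit 4 were, Apoe, Itgax, Lpl and Spp1.

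With age in white matter the lists depended on the 4-month libraries. With all 4 libraries in the fit, 0 of the 20 genes known to rise on loss of the signal were called, with all 20 above 0 and a median of 1.91. Of the 21 TGF-beta-dependent genes 0 were called, with all 21 above 0 and a median of 0.54. Over all 14623 genes tested, 0% were called and 50.6% lay above 0, with a median of 0.01. Leaving out the first 4-month library, so that 1 library stood for that group, all 20 lay above 0, with a median of 1.24. Over all genes tested in that fit the median was 0.02. The 21 dependent genes then had 12 below 0 and a median of -0.17, with 0 called. Leaving out the second 4-month library instead, all 20 and at least 18 of the 21 lay above 0. The median over all genes was 0.13 in that fit. In grey matter the 20 genes had a median of 0.17 with 14 above 0, and the 21 dependent genes a median of -0.21 with 19 below 0. The median over all genes was -0.01 there, and 0 were called by edgeR in both lists. The difference between the regions in these changes was tested gene by gene and not for the lists.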

How the data were processed

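Microglia RNA of 8 libraries was sequenced as polyadenylated RNA for an Ion Proton instrument, per the labels' protocols. The deposited table holds estimated counts per gene; Partek and DESeq2 are named in the submitters' processing notes, with no version or role, while aligner, build, annotation and strandedness of the counting were not given in the sources used here. Between 15.9% and 17.8% of a library's values above 0 were not whole within 1e-06. The other deposited table, a normalised signal, matched the rounded counts multiplied by a constant of each library in 100% of values (tolerance 1e-06); it was used in 1 alternative. The third file repeats the labels and was not used.

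Estimated counts were rounded, genes kept with filterByExpr and libraries scaled by TMM in edgeR 4.0.16 (R 4.3.3). Each comparison was fitted to its own 4 libraries with the robust quasi-likelihood test, and the age by region difference to all 8. This limit to the groups compared was set because earlier results showed 1 library with a wider spread. Calls needed a Benjamini-Hochberg adjusted p under 0.05 over all genes tested. Standard errors come from the F statistic and intervals from the t distribution at the total degrees of freedom of the fit. A permutation of 2 against 2 libraries cannot go below p = 0.333. The fit was also tested on counts simulated from its own estimated spread. No outlying library was simulated, so that test does not cover one. DESeq2 1.42.0, limma 3.58.1 on log2(normalised value + 1), other scalings, no filter, a replicate block and left-out libraries were the alternatives.

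The members and lists were chosen with earlier results of these data known. Named genes are the 10 members, fixed examples by role, called genes of a list (the 6 largest where more than 6 were called) and the 3 nearest patterns of 4 members, of which 1 gene is not reported here.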

Additional observations from a re-analysis of the deposited data

How the results depend on the processing

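In all 13 settings of the 21-month comparison 0 of the 10 genes were called, while the number of all genes called, 232 in the edgeR test reported, was 783 with no filter on low counts, 0 with all 8 libraries in the fit, 19 in that fit once the first library of 4-month white matter was dropped, and 84 to 457 with 1 of its own libraries left out. In the other comparisons the edgeR test reported called 0 genes. DESeq2 called 367 at 4 months, 280 with age in white matter, 2 with age in grey matter and 20 for the age by region difference, and edgeR with no filter called 715, 9, 39 and 470. Leaving out a library gave 0 to 2846, 0 to 6204, 0 to 2216 and 0 to 2422 calls, and 0 to 6, 0 to 6, 0 to 1 and 0 to 6 of the 10 genes. The highest of these came without the second library of 4-month white matter or, for age in grey matter, of 4-month grey matter; the cause was not tested.

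Total counts without a scaling factor moved the median of all genes to -0.18 at 4 months, 0.29 with age in white matter, 0.12 with age in grey matter and 0.14 for the age by region difference. Under that scaling Smad4 changed sign to -0.052 at 4 months, 0.17 with age in white matter and 0.0026 for the difference, Smad7 to 0.18 with age in white matter, and Tgfb1, Tgfbr1 and Tgfbr2 to 0.093, 0.084 and 0.11 with age in grey matter, each smaller than the shift of the median; limma put Tgfbr1 at 0.0083 there. With the first library of 4-month white matter dropped from the fit of all groups, with age in white matter Itgav was -0.15, Nrros was -0.36, Skil was -0.15, Smad2 was -0.24, Smad3 was -0.20, Tgfbr1 was -0.25; at 4 months Nrros was 0.20, Skil was 0.55, Smad3 was 0.092, Tgfbr1 was 0.30, Tgfbr2 was 0.063. Log2 fold changes that changed sign with a library left out had these ranges. For white against grey matter at 21 months they were Nrros -0.47 to 0.0074, Smad2 -0.15 to 0.29, Smad4 -0.12 to 0.048, Smad7 -0.16 to 0.60, Tgfb1 -0.13 to 0.29, Tgfbr1 -0.0019 to 0.15. For that at 4 months they were Itgav -0.15 to 0.56, Nrros -2.33 to 0.21, Skil -2.18 to 0.56, Smad3 -2.13 to 0.097, Smad4 -0.073 to 0.24, Smad7 -0.033 to 0.34, Tgfbr1 -2.75 to 0.31, Tgfbr2 -2.51 to 0.068. For 21 against 4 months in white matter they were Itgav -0.15 to 0.41, Nrros -0.37 to 2.12, Skil -0.15 to 2.53, Smad2 -0.25 to 0.91, Smad3 -0.21 to 1.97, Smad4 -0.24 to 0.031, Smad7 -0.50 to 0.28, Tgfbr1 -0.25 to 2.75. For that in grey matter they were Itgav -0.056 to 0.61, Nrros -0.052 to 0.12, Skil -0.0016 to 0.31, Smad4 -0.047 to 0.11, Tgfb1 -0.22 to 0.14, Tgfbr1 -0.23 to 0.21, Tgfbr2 -0.14 to 0.074. For the age by region difference they were Itgav -0.46 to 0.18, Nrros -0.39 to 2.10, Skil -0.28 to 2.41, Smad3 -0.34 to 1.85, Smad4 -0.26 to 0.022, Smad7 -0.33 to 0.45, Tgfbr1 -0.21 to 2.80.

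The labels do not say what a shared replicate number stands for, and with 2 libraries a group the data could not settle whether the numbers pair the libraries. Deviations from the group means correlated at 0.41 between the regions at 4 months, 0.056 between them at 21 months, -0.025 between the ages in white matter and -0.098 in grey matter, and at 0.15 and -0.14 across both. Red blood cell markers summed higher in the first library of all 4 groups, and pericyte and smooth muscle markers in the second. The other marker lists did not keep the same order in all 4 groups. For example, choroid plexus and ependymal markers gave 5445 and 7120 CPM in 4-month white matter and 235 and 38.8 CPM in 4-month grey matter. The replicate block called 522 genes at 21 months, 0 in the other comparisons, and 0 of the 10 genes in any. At 21 months it called 3.55% of all genes. Of the TGF-beta-dependent genes it called 3 lower (Siglech, Slc2a5 and Tgfbi). Of the genes known to rise on loss of the signal it called 10 higher and 3 lower (Cd74, H2-Aa and H2-Ab1). It called 4 early response genes higher and 2 lower (Pmepa1 and Tgfbi). In the ligand list 1 gene was called higher and 1 lower (Thbs1), and among the regulators 1 lower (Pmepa1). Pmepa1 and Tgfbi are each in 2 of these lists and are counted in each. Having 2 libraries a group limits all intervals, and 1 library left in a group was assumed to vary like the rest.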
